A study of Mus musculus with 26 samples.

Results

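Chemokines are small secreted proteins that direct the movement of leukocytes, and they act through receptors of the G protein-coupled class. Here 58 chemokine and chemokine receptor genes were followed in RNA sequencing of dorsal root ganglia of the mouse (DRG, which hold the cell bodies of sensory neurons). They were all genes whose symbol begins with *Ccl*, *Cxcl*, *Ccr*, *Cxcr* or *Ackr* and a number, together with *Xcl1*, *Cx3cl1*, *Xcr1* and *Cx3cr1* where present, among 55401 genes in the deposited tables. The set held 36 ligands, 18 receptors and 4 atypical receptors, and 2 pseudogenes were left out by their names.

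The study deleted the aryl hydrocarbon receptor gene *Ahr*, a ligand-activated transcription factor, in neurons and asked how DRG respond to nerve injury. All mice carried floxed *Ahr*. The conditional knockout (cKO) was *Ahr* f/f and carried the transgene *Thy1*-CRE(ERT2/EYFP), in which the neuronal *Thy1* promoter drives a tamoxifen-inducible Cre, so other cells of the ganglion were not targeted. Controls, labelled WT, carried no Cre and were *Ahr* fl/+ or fl/fl: in the naive and in the injured control group 2 mice were fl/+ and 1 was fl/fl, in the sham control group 1 mouse was f/+ and 1 was fl/fl, and the cultured control neurons were all fl/fl. Naive and injured mice of both genotypes received tamoxifen at 100 mg/kg daily for 5 days from 28 weeks of age. L4 to L6 ganglia were taken 5 weeks later, either from naive mice or from mice whose sciatic nerve had been crushed 1 day before (injured; 3 mice in each of the 4 groups). The supplemental libraries held ganglia of 2 mice per genotype 1 day after a sham operation, 1 library from the ipsilateral (operated) and 1 from the contralateral side of each mouse, and semi-purified DRG neurons 24 h after seeding (3 cultures per genotype). The labels state no age and no tamoxifen for these supplemental mice.

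In peripheral nerve and ganglia, *Ccl2*, *Ccl7*, *Ccl8* and *Ccl12* are known as attractants of monocytes through the receptor Ccr2, and *Cx3cl1* as a membrane-bound ligand of neurons that acts on Cx3cr1 of macrophages. The CXC ligands with the ELR motif (a glutamate, leucine and arginine before the first cysteine; *Cxcl1*, *Cxcl2*, *Cxcl3*, *Cxcl5* and *Cxcl15*) attract neutrophils through Cxcr2. *Cxcl12* signals through Cxcr4 and is taken up by the atypical receptor Ackr3, while Ackr1, Ackr2 and Ackr4 bind chemokines without G protein signalling.

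Naive and injured libraries held 20169388 to 23540375 counts, the libraries of sham mice 39306414 to 58751270 and the cultures 25299938 to 88180611, and the 58 genes took between 0.0320% and 0.141% of them. Sex-linked transcripts did not match the labelled sex in 2 of 26 libraries, injured control replicate 3 and injured cKO replicate 2. By transcripts, all naive mice, injured controls and cultures were female and all sham mice male, while the injured cKO group held 1 female and 2 males. *Ahr* counts in whole genes do not show the deleted part of the gene and so do not check the cKO label: *Ahr* was at 22.2 ± 2.87 CPM (CPM, counts scaled to library size, mean ± SD, n = 3) in naive control and 25.0 ± 2.80 in naive cKO ganglia, and it differed in none of the 5 genotype comparisons (lowest adjusted p 0.754). *Thy1*, whose promoter drives the transgene, was higher in every cKO library than in every control library of the same setting. Markers of DRG neurons summed to between 6342 and 8644 CPM in the ganglion groups and to 3872 and 3988 in the control and cKO cultures. The cultures held more endothelial marker RNA (1272 and 1051 CPM, against 86.7 to 152 in the ganglion groups) and less macrophage marker RNA (43.0 and 55.2 CPM, against 102 to 205). All 11 macrophage markers had counts in every group. In bulk RNA, fewer cells of a type and less RNA per cell cannot be told apart.

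*Cxcl1*, *Cxcl2* and *Cxcl3* were nearly absent from ganglia and abundant in culture, and their promoters are given first because they share a sequence. In the mouse genome (GRCm38.p6, sequences from RefSeq, plus strand) the genes lie close together on chromosome 5. The lines give 120 bases of each, from 150 to 31 bases before the RefSeq start of transcription. Capitals mark matches to the NF-kB motif (GGG, any 2 bases, then TTTCC) on either strand.
Cxcl1, chr5:90891095-90891214: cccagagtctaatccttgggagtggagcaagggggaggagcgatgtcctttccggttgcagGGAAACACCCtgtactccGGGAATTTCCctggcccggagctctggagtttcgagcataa
Cxcl2, chr5:90903749-90903868: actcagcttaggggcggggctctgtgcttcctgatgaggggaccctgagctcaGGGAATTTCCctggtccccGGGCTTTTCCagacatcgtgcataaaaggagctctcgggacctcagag
Cxcl3, chr5:90785951-90786070: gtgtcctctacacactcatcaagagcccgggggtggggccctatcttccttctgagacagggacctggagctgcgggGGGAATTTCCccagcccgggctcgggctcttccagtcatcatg
The same 10 letters, GGGAATTTCC, began 71 bases before the start in *Cxcl1*, 97 in *Cxcl2* and 73 in *Cxcl3*. In the 250 bases before the start, the motif matched 6 of 47 promoters of these genes (*Ccl20*, *Ccl9*, *Ccr3*, *Cxcl1*, *Cxcl2* and *Cxcl3*) and 1.41% of 32851 mouse promoters. The interferon motif (GAAA, any 2 bases, GAAA) matched the promoters of *Ccl19*, *Cxcl10* and *Cxcl14* (2.98% of all promoters). The AP-1 motif TGANTCA matched 5 (6.75% of all), among them *Cxcl10*, and the core GCGTG of the element bound by AhR matched 15 of 47 (28.2% of all). A match describes letters only. The promoter table held 43 of the 58 genes.

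In the ganglia the ELR ligands were at the limit of detection, and in the cultures they were among the most abundant chemokines. *Cxcl1* had 0 to 10 counts in each of the 20 ganglion libraries (at most 0.478 CPM). In the cultures it stood at 233, 145 and 137 CPM in control and at 184, 254 and 189 CPM in cKO. *Cxcl2* had at most 6 counts in any ganglion library, while the cultures gave 117, 94.6 and 67.3 CPM in control and 125, 153 and 124 in cKO. *Cxcl3* had 1 count in 1 of the 20 ganglion libraries and none in the rest, where 0 counts allow up to 3 counts, or 0.149 CPM in the shallowest library. It reached 24.7, 24.2 and 12.5 CPM in control and 34.9, 44.1 and 26.2 CPM in cKO cultures. *Cxcl5* followed, with at most 0.233 CPM in ganglia against 34.4, 27.6 and 16.6 CPM in control and 38.4, 49.5 and 33.8 CPM in cKO cultures. Crush of the nerve did not bring these 4 genes over the count filter in ganglia, so no injury test exists for them. *Cxcl15* had at most 2 counts in any library.

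**Figure D1:**
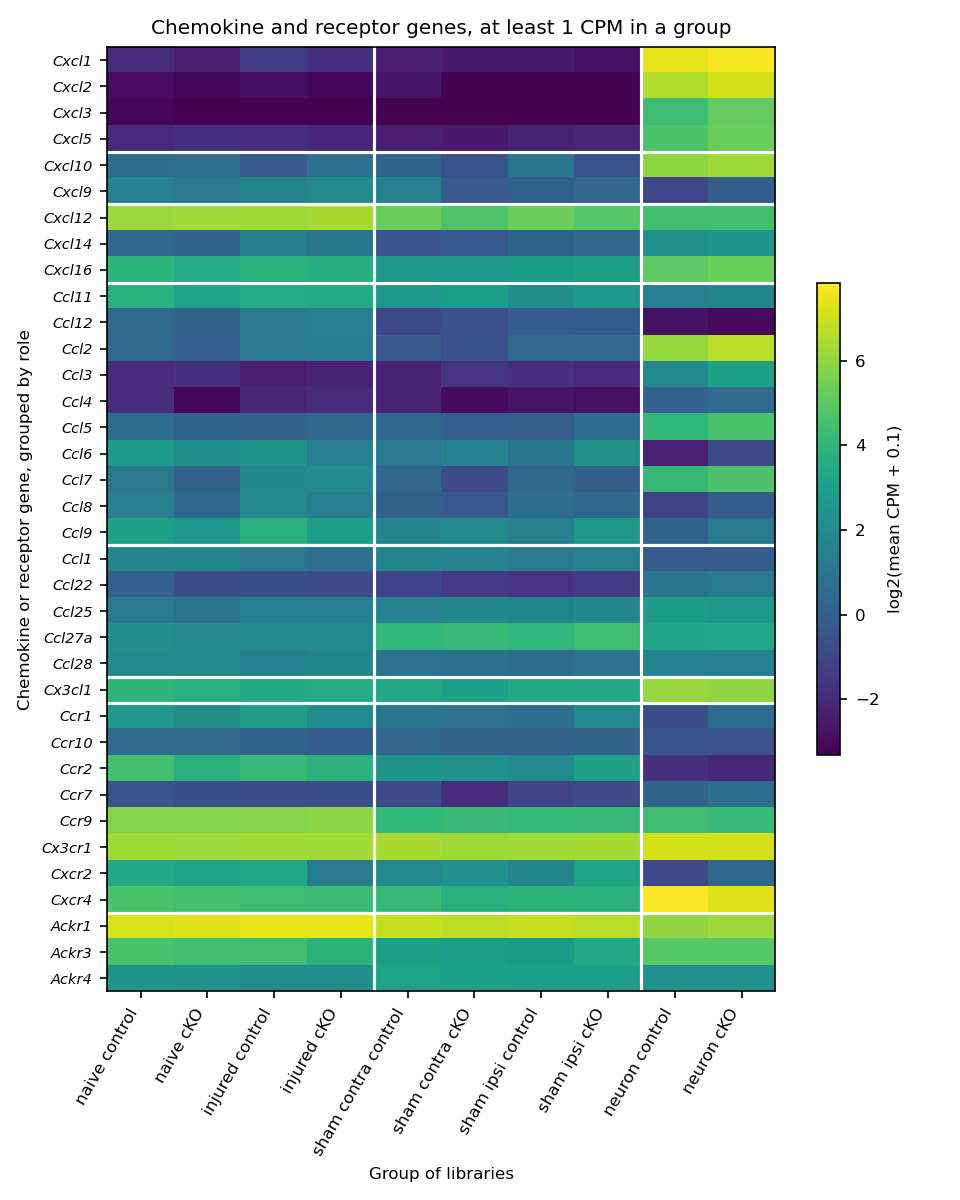
Mean CPM in each of the 10 groups (columns) for 36 of the genes that reached a mean of at least 1 CPM in a group (rows, grouped by role and separated by white lines), drawn as log2(mean CPM + 0.1). The 4 ELR ligands at the top are dark in all 8 ganglion groups and bright in the cultures, where *Cxcl1* averaged 172 CPM in control and 209 CPM in cKO.

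Several other inflammatory ligands, though not all, were also far higher in culture. *Ccl2* was at 71.3, 73.2 and 56.4 CPM in control cultures and 91.4, 124 and 87.4 CPM in cKO cultures, and at 0.434 to 3.03 CPM over the 20 ganglion libraries. *Cxcl10*, an interferon-induced ligand of Cxcr3, was at 48.9 to 89.2 CPM in the cultures and at 0.457 to 2.41 CPM in the ganglia. *Ccl7*, *Ccl5*, *Ccl3* and *Ccl4* were likewise above every ganglion library in all 6 cultures: *Ccl5* at 11.1 to 33.4 CPM against 0.360 to 2.03, and *Ccl3* at 2.28 to 12.5 CPM against 0 to 0.315. *Ccl4* was at 1.498, 1.06 and 0.565 CPM in control and 1.38, 1.80 and 0.932 CPM in cKO cultures, against 0 to 0.404 CPM in the ganglia. *Cxcl10* lies within *Art3* on the opposite strand. The counts may include reads shared by both genes, as the strand setting of the counting is not given.

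Receptors did not follow 1 direction. *Cxcr4*, the receptor of *Cxcl12*, was at 282, 219 and 181 CPM in control and 151, 148 and 173 CPM in cKO cultures, and at 12.6 to 35.2 CPM in the ganglia. *Cx3cr1* counts were at 133 to 142 CPM in the cultures and at 68.8 to 83.8 CPM in the ganglia. They may hold reads of the genes that overlap *Cx3cr1*, as given below. *Ccr2*, the monocyte receptor of *Ccl2*, was at 0.0776 to 0.324 CPM in the cultures and at 3.66 to 36.0 CPM in the ganglia. The cultures therefore combined high *Ccl2* and *Ccl7* RNA with *Ccr2* RNA near the floor.

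*Cx3cl1* was at 57.3 to 79.9 CPM in the cultures and at 7.85 to 16.8 CPM in the ganglia. *Cxcl16*, a membrane-bound ligand of Cxcr6, was at 26.1 to 47.8 CPM against 5.08 to 17.4. The exceptions on the ligand side were *Ccl6*, *Ccl11* and *Ccl12*: *Ccl11* (eotaxin, a ligand of Ccr3) was at 1.94 to 3.56 CPM in the cultures and at 3.80 to 17.7 CPM in the ganglia, and *Ccl12* was at 0 to 0.0809 CPM against 0.144 to 3.06. *Cxcl12*, at 17.2 to 25.9 CPM in the cultures, overlapped the ganglia (23.7 to 102 CPM). Other ligands that overlapped included *Ccl9*, at 0.648 to 3.47 CPM in the cultures against 2.54 to 16.3 in the ganglia, and *Ccl8*, at 0.121 to 1.29 against 0.654 to 4.58. *Ccl1* (0.449 to 1.17 against 1.03 to 3.95 CPM) and *Cxcl9* (0.399 to 1.29 against 0.224 to 5.56 CPM) overlapped too. In all, 17 of the 58 genes were higher in every culture than in every ganglion library and 7 were lower. Among 20256 genes with a mean of at least 1 CPM in a group, 23.5% were higher and 19.6% were lower in this sense. Of the 58 genes, 37 reached that mean, and among these 37 the shares were 45.9% and 18.9%. Some of the 37 reached it only through the cultures, so the share of higher genes is partly set by this limit. The cultures differ from the naive and injured ganglia in table, from the sham ganglia in sex by transcripts, and from both in cell content and handling, so these levels stand side by side without a test, and the part of the changed cell content was not tested.

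Levels can be compared between genes only per length, and the order depends on whether the exons or the whole annotated gene span is taken. The deposited FPKM took the whole gene span as length. *Gm17268*, with no exon within *Ccl2*, had counts equal to 100% of those of *Ccl2*. The counts therefore seem to include intronic reads. In naive control ganglia *Ackr1*, a chemokine-binding receptor of venular endothelium and red cells, was highest on both scales. It had 103 ± 14.9 CPM per exon kb and 77.3 ± 11.2 CPM per span kb (n = 3). Part of its exons is shared with the neuronal gene *Cadm3*, as given below, so its rank is uncertain. Per exon kb *Ackr1* was followed by *Cx3cr1* (16.5 ± 1.35), *Cxcr4* (13.9 ± 4.87), *Ccl11* (12.5 ± 3.69) and *Cxcl12* (8.75 ± 1.86). No neighbours among these 4 differed beyond their spread. Per span kb the next were *Cxcr4* (6.13 ± 2.15), *Cxcl12* (5.58 ± 1.19) and *Ccl11* (2.64 ± 0.778), and *Cx3cr1*, with its long span, was no longer among them. In control cultures *Cxcr4* was at 126 ± 28.2 CPM per exon kb, *Cxcl1* at 91.6 ± 28.5, *Ccl2* at 58.8 ± 8.09, *Cxcl2* at 45.0 ± 12.1 and *Ackr1* at 44.8 ± 10.02. Per span kb the same 5 genes were highest in another order: *Cxcl1* (91.6 ± 28.5), *Cxcr4* (55.6 ± 12.5), *Cxcl2* (45.0 ± 12.1), *Ccl2* (35.6 ± 4.89) and *Ackr1* (33.8 ± 7.55). On either scale no neighbours in the order of the cultures differed beyond their spread.

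The homeostatic CC ligands, which guide lymphocytes in resting tissue, had low counts in most libraries. *Ccl27a*, a ligand of Ccr10, was at 5.35, 3.48 and 4.26 CPM in naive control, 4.11, 3.03 and 4.21 CPM in injured control, 3.62, 3.99 and 3.41 CPM in naive cKO and 3.80, 3.75 and 3.88 CPM in injured cKO ganglia. It was at 14.2 to 23.6 CPM in the 8 sham libraries and at 8.58 to 10.2 CPM in the cultures. *Ccl28*, a mucosal ligand of Ccr10 and Ccr3, was at 1.87 to 5.25 CPM in the naive and injured, 1.15 to 2.37 CPM in the sham and 1.78 to 3.57 CPM in the culture libraries. *Ccl22*, a ligand of Ccr4 made by dendritic cells and macrophages, was at 0.0510 to 1.08 CPM in all ganglia and at 1.70, 2.73 and 1.40 CPM in control and 2.85, 2.24 and 1.62 CPM in cKO cultures. For *Ccl27a* the sham libraries were the highest and the naive and injured libraries the lowest, with no overlap among the 3 sets, which come from 2 tables. *Ccl25* was at 2.61 to 3.93 CPM in the sham libraries and at 5.38 to 8.23 CPM in the cultures.

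Of the atypical receptors, 3 of 4 reached a group mean of 1 CPM. *Ackr1* was at 121, 162 and 149 CPM in naive control and 156, 181 and 174 CPM in injured control ganglia, with 137 to 168 CPM in naive cKO and 154 to 192 CPM in injured cKO. Its sham libraries lay between 99.2 and 124 CPM and its cultures between 49.5 and 77.6 CPM, below every ganglion library. *Ackr3* was at 11.7 to 29.9 CPM in naive and injured, 4.22 to 10.5 CPM in sham and 24.3 to 34.1 CPM in culture libraries. *Ackr4*, a scavenger of *Ccl19*, *Ccl21a* and *Ccl25*, stayed between 4.01 and 8.91 CPM in all 26 libraries. *Ackr3* in the cultures overlapped the naive and injured ganglia.

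Among the other receptors, *Ccr9*, known for lymphocyte homing to the gut, was at 51.2, 52.0 and 52.6 CPM in naive control, 58.4, 54.3 and 57.1 CPM in injured control, 57.5, 54.0 and 51.7 CPM in naive cKO and 59.3, 60.4 and 55.4 CPM in injured cKO ganglia. *Ccr10* was at 1.17 to 1.48 CPM in the 6 naive and 0.724 to 1.09 CPM in the 6 injured libraries, which did not overlap. *Ccr7*, the dendritic cell and T cell receptor of *Ccl19* and *Ccl21a*, was at 0.0481 to 0.813 CPM in the ganglia and at 0.698 to 1.97 CPM in the cultures. *Cxcl9*, an interferon-induced ligand of Cxcr3, varied widely between libraries of 1 group: it was at 5.56, 1.08 and 4.87 CPM in the injured cKO and at 5.19 and 0.224 CPM in the sham contralateral control ganglia.

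The levels of several receptors are uncertain because their annotated position is shared with other genes. *Ackr1* shares 25.7% of its exons with *Cadm3*, a neuronal adhesion gene with 583% of its counts. *Cx3cr1* is annotated over 168264 bp that overlap 8 genes, among them *Wdr48* (41.1% of its counts), *Csrnp1* (30.1%) and *Gorasp1* (29.3%). What share of the *Cx3cr1* counts comes from these genes was not tested. *Ccr9* overlaps 6 genes, among them the noncoding *Gm17200* (81.6% of its counts), *Gm10052* (49.5%) and *Lztfl1* (46.8%). *Ccr10* lies within *Cntnap1* (14903%), *Ackr4* lies within *Acad11* (272%), and *Ccl25* shares 204 bp with *Elavl1*. *Ccl2* lies within *Gm17268*, whose counts were 100% of those of *Ccl2* and which has no exon in that stretch. *Ccl6* lies in the same way within *E230016K23Rik* (111% of its counts). In all, 19 of the 58 genes overlap another gene.

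The remaining 21 genes never reached a group mean of 1 CPM: *Ackr2*, *Ccl17*, *Ccl19*, *Ccl20*, *Ccl21a*, *Ccl24*, *Ccl26*, *Ccr1l1*, *Ccr3*, *Ccr4*, *Ccr6*, *Ccr8*, *Cxcl11*, *Cxcl13*, *Cxcl15*, *Cxcl17*, *Cxcr1*, *Cxcr3*, *Cxcr5*, *Cxcr6* and *Xcl1*. *Ccl19*, a ligand of Ccr7 in lymphoid tissue, had 0 counts in all 26 libraries. Of the 58 genes, 39 passed the count filter in the naive and injured ganglia, 39 in the sham ganglia and 45 in the cultures, and tests below concern only those.

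Injured ganglia, taken 1 day after crush, were compared with naive ganglia within each genotype. The naive mice were not operated, and the sham mice are in another table and differ from them in sex by transcripts. Crush and the operation itself therefore cannot be told apart in these values. In cKO ganglia the genes called higher included *Ccl7*, *Ccl2*, *Ccl12* and *Ccl8*, with the B cell attractant *Cxcl13* and *Ccl25*, and *Ccl1* was called lower. In control ganglia *Ccl7*, *Ccl12*, *Cxcl13* and *Cxcl14* were called higher and *Cx3cl1* lower. A call is an adjusted p under 0.05 in edgeR's quasi-likelihood test, adjusted over all 21261 genes tested. In controls 5 of 39 genes were called, where 21.6% of all genes tested were: 4 were higher (12.9% of all) and 1 lower (8.73% of all). In cKO 8 of 39 were called, where 18.6% of all genes were: 7 were higher (10.7% of all) and 1 lower (7.89% of all). At an unadjusted p under 0.05 the numbers were 12 of 39 in control (33.8% of all) and 12 of 39 in cKO (30.8% of all). Libraries of naive and injured mice did not overlap for 13 of 39 genes in control (38.1% of all) and 12 of 39 in cKO (36.1% of all). The share among the chemokine genes was not above the background in controls and close to it in cKO. The median log2 fold change of the 39 was -0.19 in control and 0.05 in cKO (all genes: -0.02 and -0.00).

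*Ccl7* was at 2.92, 1.63 and 1.74 CPM in naive control and 3.44, 3.27 and 3.92 CPM in injured control ganglia. In cKO it was at 0.836, 1.28 and 0.807 CPM in naive and 3.53, 4.22 and 4.62 CPM in injured ganglia. Neither pair of groups overlapped. The log2 fold change was 0.76 ± 0.22 (SE, adjusted p 0.0301) in control and 2.07 ± 0.24 (adjusted p 0.000138) in cKO by edgeR's test, higher in 3 of 3 injured mice against every naive mouse.

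*Ccl2* was at 1.57, 1.08 and 1.32 CPM in naive control, 2.63, 1.91 and 1.70 CPM in injured control, 1.11, 0.825 and 0.762 CPM in naive cKO and 3.03, 1.80 and 2.67 CPM in injured cKO ganglia. Its groups did not overlap in either genotype. By edgeR's test it rose by 1.48 ± 0.25 (log2, adjusted p 0.00162) in cKO, while in control the log2 difference was 0.65 ± 0.24 (adjusted p 0.0807). *Ccl12*, a mouse ligand of Ccr2, was at 1.75, 0.813 and 1.32 CPM in naive control and 3.06, 2.33 and 1.70 CPM in injured control ganglia, which overlap. In cKO it was at 0.929, 0.916 and 1.12 CPM in naive and 2.76, 2.42 and 2.76 CPM in injured ganglia, without overlap. Its log2 fold change by edgeR's test was 0.86 ± 0.26 (adjusted p 0.0325) in control and 1.42 ± 0.27 (adjusted p 0.00299) in cKO.

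*Ccl8*, which acts on Ccr8 and Ccr2 in mice, was at 0.975, 1.19 and 1.61 CPM in naive cKO and at 2.85, 1.95 and 3.15 CPM in injured cKO ganglia (log2 fold change 1.07 ± 0.34, adjusted p 0.0473, edgeR). In control it was at 2.92, 1.35 and 3.59 CPM in naive and 3.53, 2.94 and 4.58 CPM in injured ganglia, which overlap. *Ccl2*, *Ccl7*, *Ccl11*, *Ccl12*, *Ccl8* and *Ccl1* are neighbours on chromosome 11, from 82035571 to 82305690 in GRCm38. *Ccl11*, between *Ccl7* and *Ccl12*, did not pass the test in either genotype (log2 difference -0.18 ± 0.20 in control and 0.32 ± 0.21 in cKO).

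*Ccl1*, a ligand of Ccr8 at the end of the same cluster, went the other way. It was at 3.95, 3.07 and 3.23 CPM in naive and 2.17, 1.03 and 1.55 CPM in injured cKO ganglia, without overlap (log2 fold change -1.09 ± 0.23, adjusted p 0.00620, edgeR). In control the values were 3.19, 3.07 and 3.02 CPM in naive and 2.05, 2.47 and 1.51 CPM in injured ganglia, also without overlap, and the difference of -0.62 ± 0.23 (log2) missed the threshold (adjusted p 0.0761, edgeR). Mast cell markers, 5 genes, summed to between 81.3 and 85.5 CPM in naive and 68.5 and 77.6 CPM in injured control ganglia, and to between 91.2 and 95.0 and between 67.1 and 77.0 CPM in cKO. Of them 3 fell in control and 1 in cKO, and their part in the *Ccl1* values was not tested. The gene is annotated over 129034 bp, far longer than its neighbours, so which transcript gave these counts is not known.

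**Figure D2:**
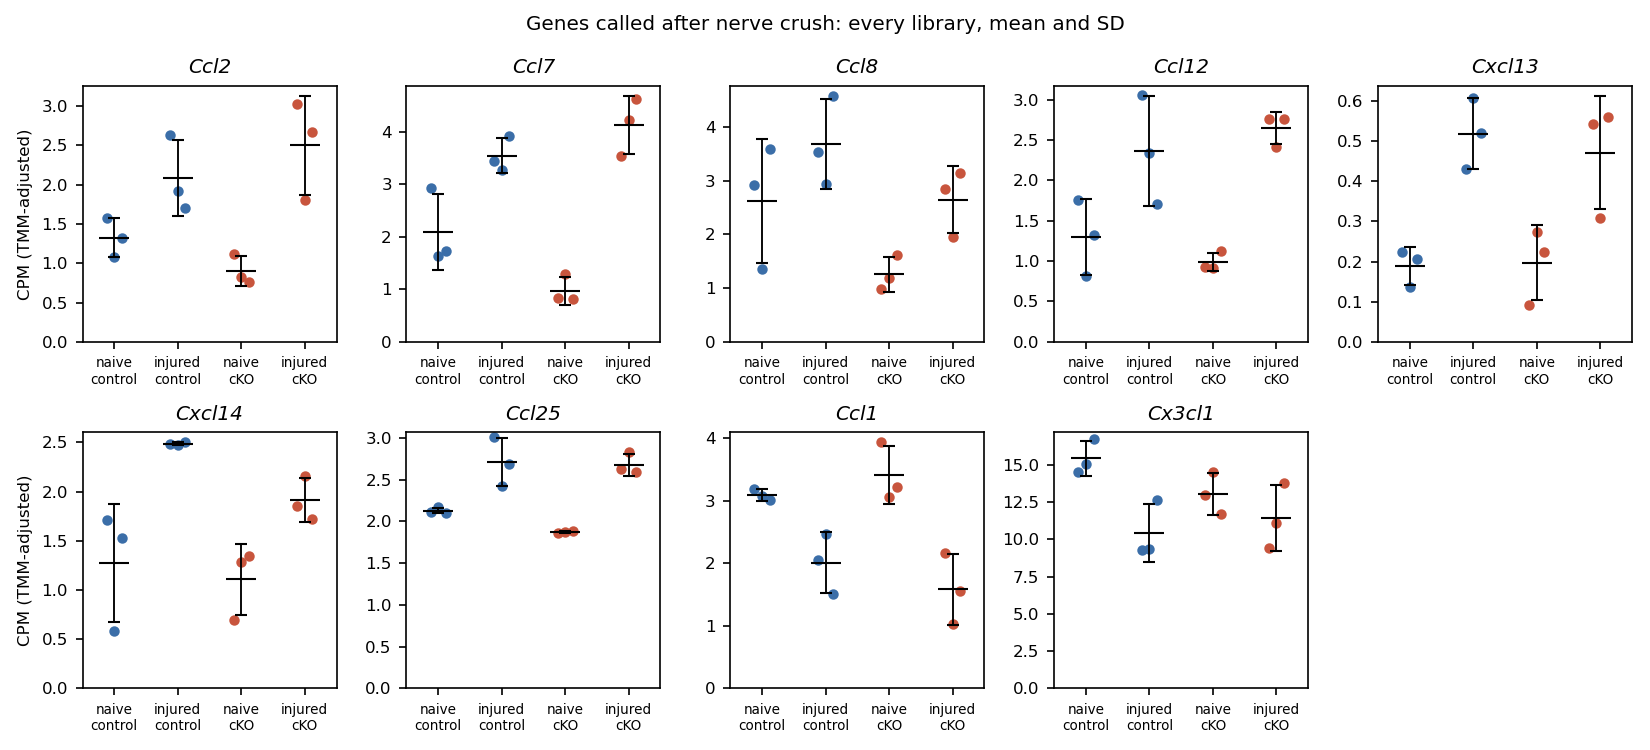
CPM in every naive and injured library for 9 of the genes called in either genotype (points, blue control and red cKO; the long bar is the mean and the whiskers the SD of 3 mice). *Ccl7* in cKO ganglia lies between 0.807 and 1.28 CPM before and between 3.53 and 4.62 CPM after crush, and *Ccl1* and *Cx3cl1* are the genes called lower.

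*Cxcl13* had low counts but separated in both genotypes: 0.225, 0.135 and 0.207 CPM in naive control against 0.430, 0.607 and 0.520 CPM in injured control, and 0.0929, 0.275 and 0.224 CPM in naive cKO against 0.543, 0.309 and 0.561 CPM in injured cKO ganglia. The log2 fold changes by edgeR's test were 1.43 ± 0.38 (adjusted p 0.0184) and 1.24 ± 0.38 (adjusted p 0.0413). *Cxcl14*, whose receptor is debated, was at 1.71, 0.587 and 1.53 CPM in naive control and at 2.48, 2.47 and 2.50 CPM in injured control ganglia (0.96 ± 0.30, adjusted p 0.0425, edgeR). In cKO the groups were also apart, with 0.697, 1.28 and 1.35 CPM in naive and 1.85, 2.16 and 1.73 CPM in injured ganglia, and the difference of 0.78 ± 0.32 was not called (adjusted p 0.119, edgeR).

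*Cx3cl1* was at 14.5, 15.1 and 16.8 CPM in naive control and at 9.27, 9.38 and 12.7 CPM in injured control ganglia, and it fell by 0.57 ± 0.15 on the log2 scale (adjusted p 0.0194, edgeR; log2 fold change -0.57). In cKO the values of 13.0, 14.5 and 11.7 CPM in naive and 9.41, 11.1 and 13.8 CPM in injured ganglia overlapped (log2 difference -0.19 ± 0.15). *Ccl25*, a ligand of Ccr9, moved from 1.86, 1.88 and 1.88 CPM to 2.62, 2.83 and 2.59 CPM in cKO (0.51 ± 0.12, adjusted p 0.0185, edgeR). In control it was at 2.11, 2.17 and 2.11 CPM in naive and 3.01, 2.43 and 2.69 CPM in injured ganglia, also without overlap, and was not called (0.35 ± 0.12, adjusted p 0.108, edgeR).

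Some receptors of the called ligands were not called. *Ccr2*, whose ligands rose, was at 8.83 to 17.3 CPM in naive and 17.9, 11.3 and 13.4 CPM in injured cKO ganglia, which overlap (log2 difference 0.17 ± 0.44, adjusted p 0.845, edgeR), and in control the difference was -0.19 ± 0.42. *Cxcl12*, *Cxcr4* and *Ackr3* were not called in either genotype (*Cxcl12*: 0.07 ± 0.18 in control and 0.09 ± 0.18 in cKO). *Cx3cr1*, at 68.8 to 82.5 CPM in the 12 libraries, differed by 0.06 ± 0.07 and 0.09 ± 0.07. Its counts may hold reads of the genes that overlap it, as given above, so the receptor itself may not be measured here. The summed macrophage markers ranged from 139 to 224 CPM in naive and from 182 to 217 CPM in injured control ganglia, and from 118 to 193 and from 131 to 199 CPM in cKO, so they overlapped, and 0 of 11 macrophage markers were called in either genotype. Their part in these results was not tested.

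**Figure D3:**
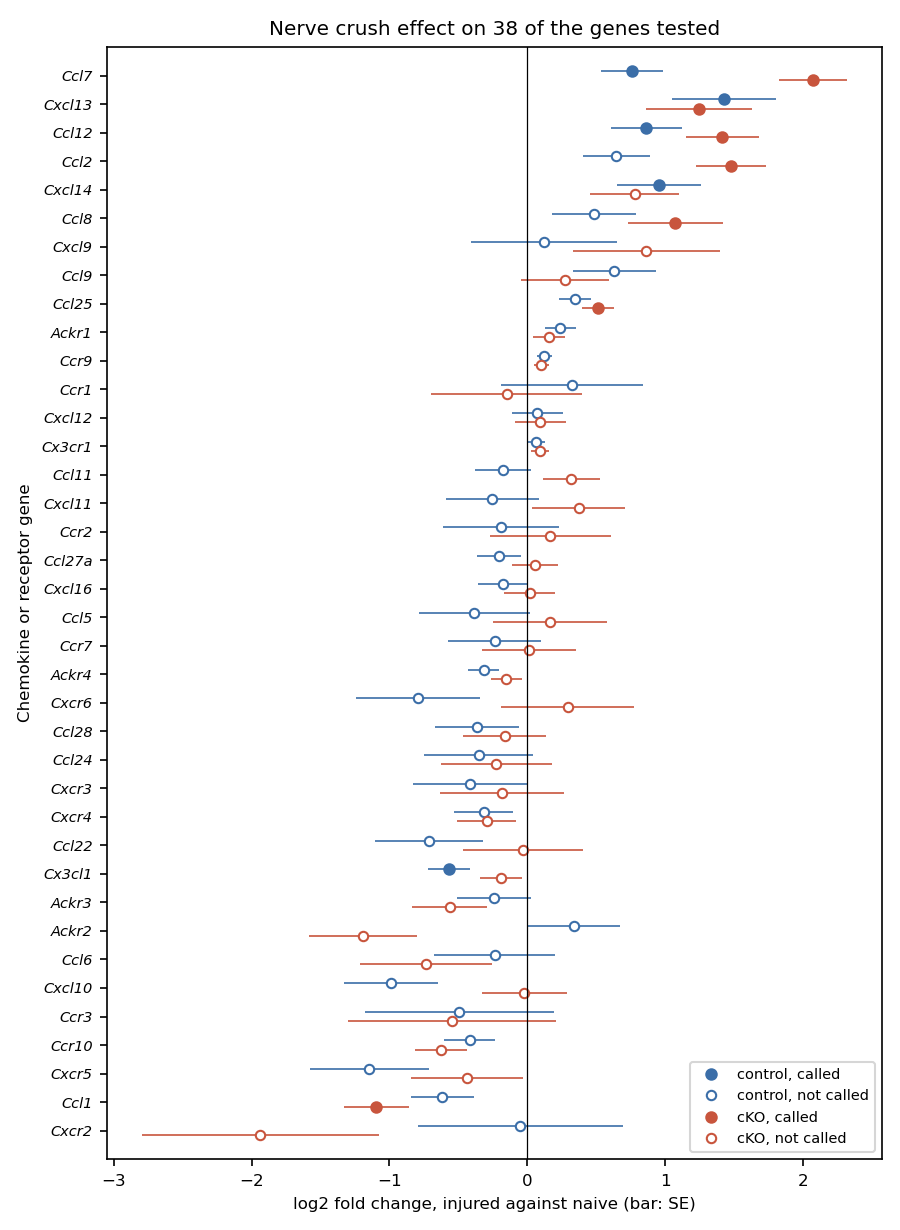
Log2 fold change of injured against naive ganglia (points, bars SE from edgeR) for 38 of the genes tested, blue in control and red in cKO, filled where called. *Ccl7* and *Cxcl13* lead at the top, *Ccl7* with 0.76 in control and 2.07 in cKO, and *Cxcr2*, at the bottom, has the widest error.

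Whether the injury effect differed between genotypes was tested as an interaction in the same fit, with 0 of 39 genes called (0.0% of all 21261 genes). At an unadjusted p under 0.05 there were 3 (2.95% of all genes): *Ccl7* (cKO minus control injury effect 1.31 ± 0.33 on the log2 scale, unadjusted p 0.00201), *Ackr2* (-1.53 ± 0.51) and *Ccl2* (0.83 ± 0.35). The lowest adjusted p was 1.00, and DESeq2 also called 0. A gene called in 1 genotype only is therefore not shown to differ between them.

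Averaged over both genotypes, 13 of 39 genes were called, where 34.1% of all genes were: 9 higher (18.4% of all) and 4 lower (15.7% of all). At an unadjusted p under 0.05 the number was 15 of 39 (43.6% of all). The called genes included the CC ligands *Ccl7* (1.42 ± 0.17), *Ccl12* (1.14 ± 0.19), *Ccl2* (1.06 ± 0.18), *Ccl8* (0.78 ± 0.23) and *Ccl25* (0.43 ± 0.08), the CXC ligands *Cxcl13* (1.34 ± 0.27) and *Cxcl14* (0.87 ± 0.22), and the receptor *Ccr9* (0.11 ± 0.04), all higher. Lower were *Ccl1* (-0.86 ± 0.16), *Ccr10* (-0.52 ± 0.13), *Cx3cl1* (-0.38 ± 0.11) and *Ackr4* (-0.23 ± 0.08), all as log2 fold change ± SE with edgeR. *Ccl2*, *Ccl25*, *Ccr9*, *Ccr10* and *Ackr4* share their position with other genes as given above. Of 20 alternatives run, the call of *Ccr9* was lost in 13 (adjusted p up to 0.148), that of *Ackr4* in 12 (up to 0.226) and that of *Ccl8* in 4 (up to 0.0580). That of *Ccr10* was lost in 1, DESeq2 (adjusted p 0.0807).

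The number of calls in controls changed when single libraries were left out. It was 1, 0 and 3 without injured control replicates 1, 2 and 3. It was 6, 2 and 1 without naive control replicates 1, 2 and 3. Over all genes the share called in control fell from 21.6% to between 14.4% and 18.9% in these fits. In cKO 5 remained called without injured cKO replicate 1 (17.4% of all genes). Without naive cKO replicates 1 and 3 there were 4 each (13.2% and 12.5% of all genes). With sex by transcripts as a covariate 3 were called in cKO, *Ccl7*, *Ccl2* and *Ccl12*, and these 3 were called under each of the 15 alternatives run (adjusted p at most 0.00712, 0.0114 and 0.0389). Without both libraries that went against their labelled sex, 5 were called in cKO.

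Genes around the chemokine system were followed by 3 lists. Of 21 tested genes of NF-kB and the cytokines that act upstream of chemokine genes, 9 rose and 0 fell in control, and 10 rose and 0 fell in cKO ganglia. Over all genes tested, 12.9% were called higher and 8.73% lower in control, and 10.7% and 7.89% in cKO. With sex by transcripts as a covariate, 5 of the 21 genes were called in cKO, and 6.65% of all genes were called in place of 18.6%. *Il6*, an injury cytokine, rose by 4.26 in control and 3.78 in cKO (log2). *Socs3*, a feedback inhibitor of cytokine signalling, rose by 2.06 and 2.18. The transcription factor and cofactor genes *Rela* (0.43 and 0.44), *Cebpd* (1.15 and 0.93), *Cebpb* (0.56 and 0.58) and *Nfkbiz* (0.92 and 0.76) and the receptor genes *Il1r1* (0.88 and 0.87) and *Tnfrsf1a* (0.41 and 0.47) were called in both genotypes, as was the adaptor gene *Myd88* (0.65 and 0.56). *Irf7* was called in cKO (0.66). Of 31 tested genes of chemokine receptor signalling, 7 rose and 6 fell in control, and 6 rose and 6 fell in cKO, where 6 were called with the sex covariate. The arrestin gene *Arrb1* rose by 0.66 and 0.55, and the guanine nucleotide exchange genes *Prex1* (-0.26 and -0.62) and *Dock2* (-0.67 and -0.53) fell. Of 10 related genes with other symbols, *Pitpnm3* rose in control (0.49) and the platelet chemokine gene *Ppbp* fell in cKO (-2.36).

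The cKO was then compared with control within each setting. As no tamoxifen is stated for the sham and culture mice, deletion of *Ahr* in them could not be checked. No chemokine or receptor gene was called in any of the 5 comparisons of cKO with control by edgeR. The background was as sparse: 0.00941% of all genes tested were called in naive and 0.00941% in injured ganglia, 0.0% in cultures, 0.00451% in sham ipsilateral and 0.0% in sham contralateral ganglia. At an unadjusted p under 0.05 there were 3 of 39 in naive (5.79% of all genes), 4 of 39 in injured (2.72%), 11 of 45 in cultures (8.0%), 9 of 39 in sham ipsilateral (7.59%) and 3 of 39 in sham contralateral ganglia (5.23%). DESeq2 called 0 in naive, injured and sham contralateral ganglia, 2 of 45 in cultures (*Ccl2* and *Ccl6*; 0.7% of all genes) and 2 of 39 in sham ipsilateral ganglia (*Ccl6* and *Ccl9*; 0.69% of all genes). The values below are not calls by edgeR.

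In naive ganglia *Ccl7* was lower in every cKO mouse (0.807 to 1.28 CPM) than in every control mouse (1.63 to 2.92 CPM), with a log2 difference of -1.10 ± 0.26 (unadjusted p 0.00114, adjusted p 0.754, edgeR). Such separation held for 2 of the 39 genes, *Ccl7* and *Ccl25* (the latter not under the unadjusted threshold), and for 11.5% of all genes. *Ccl8* was at 2.92, 1.35 and 3.59 CPM in control and 0.975, 1.19 and 1.61 CPM in cKO ganglia (-1.06 ± 0.34), and *Ccl11* at 13.3, 9.71 and 17.7 CPM against 7.48, 11.1 and 7.89 CPM (-0.62 ± 0.21), and both overlapped. Of the 39 genes, 32 had a lower and 7 a higher value in naive cKO, with a median log2 difference of -0.24 against 0.00 over all genes. Markers of immune cells also had negative medians in naive cKO, with 0 called: -0.28 for 11 macrophage, -0.46 for 10 neutrophil, -0.42 for 6 monocyte and -0.42 for 6 T cell markers. Macrophage markers summed to between 139 and 224 CPM in control and 118 and 193 CPM in cKO, monocyte markers to between 25.2 and 136 and between 34.1 and 78.3 CPM, and T cell markers to between 6.94 and 10.1 and between 5.61 and 6.64 CPM. Their part in the chemokine values was not tested. *Ccl7* was also lower in sham cKO ganglia: 1.55 and 0.971 CPM in control against 0.530 and 0.459 CPM in cKO on the contralateral side (-1.35 ± 0.30), and 1.25 and 1.29 against 0.865 and 0.912 CPM on the ipsilateral side (-0.51, not under the unadjusted threshold). In injured ganglia *Ccl7* overlapped (3.27 to 3.92 CPM in control and 3.53 to 4.62 CPM in cKO).

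In injured ganglia, *Ackr2*, a scavenger of inflammatory CC chemokines, was at 0.573, 0.607 and 1.09 CPM in control and 0.271, 0.154 and 0.388 CPM in cKO (-1.43 ± 0.38, adjusted p 1.00, edgeR). *Cxcl10* was at 0.764, 0.840 and 0.662 CPM in control and 1.63, 1.18 and 1.98 CPM in cKO (1.08 ± 0.34). *Ccl9*, a ligand of Ccr1, was at 10.8, 10.7 and 16.3 CPM against 9.23, 5.91 and 6.69 CPM (-0.79 ± 0.31). These 3 genes and *Cxcl14*, which was not under the unadjusted threshold, did not overlap between genotypes, 4 of 39 genes, which held for 8.72% of all genes. *Cxcr2* (-2.09 ± 0.85), also under the threshold, overlapped. By transcripts the injured controls were all female and the injured cKO group was of mixed sex. Genotype and sex therefore cannot be fully told apart in these values.

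In the cultures 35 of 45 genes had a higher and 10 a lower value in cKO, with a median log2 difference of 0.30 (all genes: -0.00). *Ccl7* was at 20.2, 18.2 and 13.6 CPM in control and 24.0, 30.9 and 23.2 CPM in cKO cultures. *Ccl2* (0.59 ± 0.15), *Ccl7* (0.59 ± 0.16), *Cxcl2* (0.53 ± 0.18) and *Cxcl3* (0.78 ± 0.27) were higher in every cKO culture than in every control culture, with adjusted p from 0.468 to 0.575 by edgeR. *Cxcl5* (0.64 ± 0.25) and *Ccl3* (1.08 ± 0.40) overlapped. *Ccl6* was at 0.121, 0.134 and 0.0499 CPM in control and 0.370, 0.724 and 0.420 CPM in cKO cultures (2.29 ± 0.46), also without overlap. Its control values rest on 3, 12 and 3 counts, near the floor, and the gene shares its position with *E230016K23Rik*. *Ccr1* (1.39 ± 0.41) and *Cxcl9* (1.03 ± 0.36) were separated too, and *Ccl8* (1.13 ± 0.47) overlapped. *Cxcr4* was lower in every cKO culture (-0.53 ± 0.15). In all, 8 of 45 genes did not overlap, where 15.2% of all genes did not. Macrophage markers summed to 38.3, 49.3 and 41.4 CPM in control and 46.7, 70.0 and 48.9 CPM in cKO cultures, and neutrophil markers to 20.4, 102 and 15.3 CPM against 68.0, 194 and 50.2 CPM. Their part in these differences was not tested. Culture cKO replicate 2 had the highest marker sums and the highest *Cxcl1*, *Cxcl2*, *Cxcl3*, *Cxcl5*, *Ccl2*, *Ccl3*, *Ccl5*, *Ccl6*, *Ccl7* and *Cxcl10* of all 6 cultures.

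**Figure D4:**
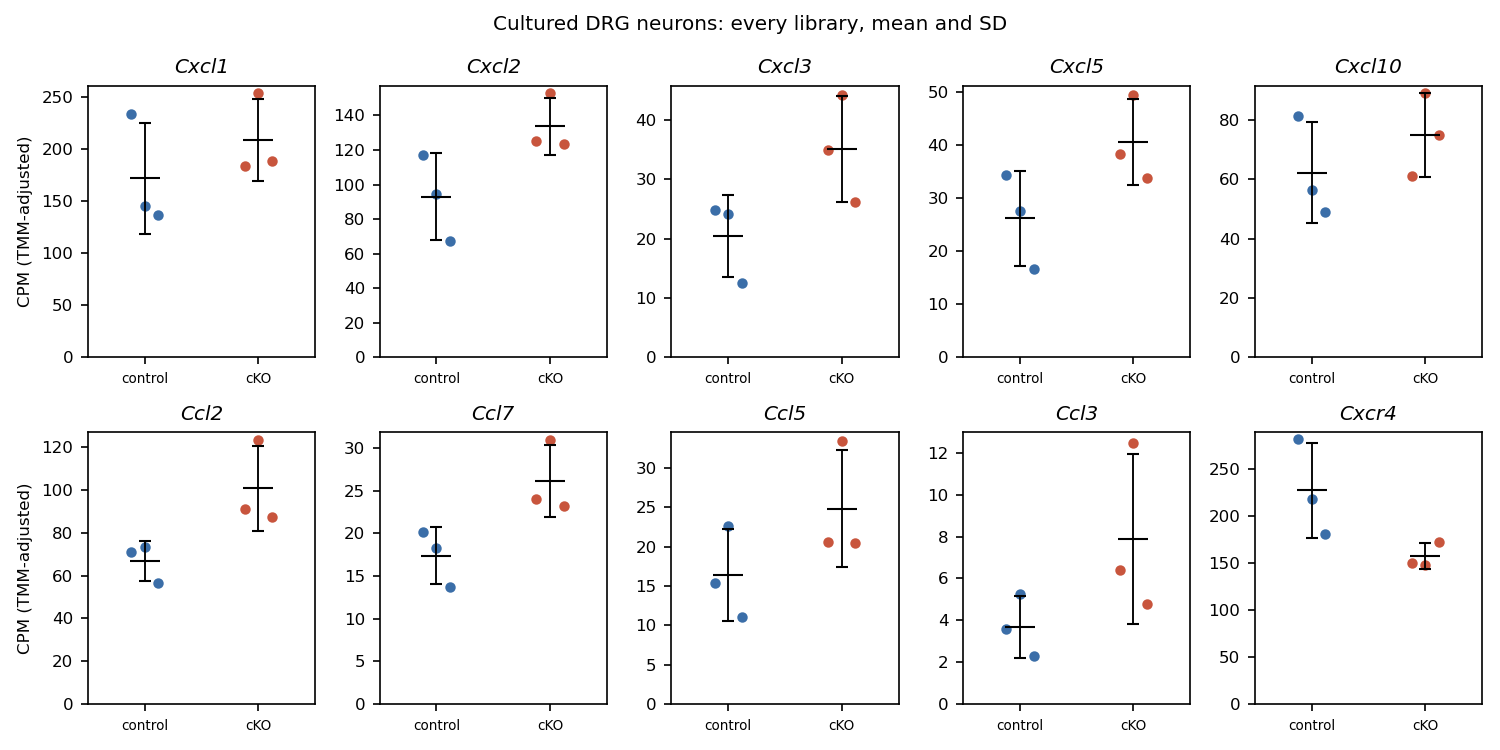
CPM in each of the 6 cultures (points, blue control and red cKO; the long bar is the mean and the whiskers the SD of 3 cultures) for 9 inflammatory ligands and *Cxcr4*. *Ccl2*, *Ccl7*, *Cxcl2* and *Cxcl3* are higher in every cKO culture and *Cxcr4* lower, and none passed the adjusted test with edgeR.

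On the operated side of sham mice, *Ccl9* (1.21 ± 0.29), *Ccl6* (1.30 ± 0.32), *Ccr2* (1.09 ± 0.32), *Ccr1* (1.40 ± 0.42), *Cxcr2* (1.43 ± 0.48), *Ccr3* (1.84 ± 0.61) and *Cxcr5* (1.22 ± 0.52) had higher values in cKO and *Cxcl10* (-1.68 ± 0.44) lower, at adjusted p of 0.498 to 0.65 by edgeR. With 2 mice per genotype, 20 of 39 genes did not overlap between the groups, where 33.3% of all genes did not. On the other side *Cxcr4* was at 18.5 and 16.4 CPM in control and 12.6 and 12.6 CPM in cKO (-0.47 ± 0.10), and *Cxcl12* at 51.7 and 28.9 CPM against 23.7 and 29.9 CPM (-0.59 ± 0.25). There 13 of 39 genes did not overlap, where 39.0% of all genes did not.

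Several of these genes are expressed by neutrophils and monocytes, so their values are given beside neutrophil marker RNA. *Cxcr2* was at 22.4, 3.12 and 5.25 CPM in the 3 naive control libraries, whose 9 neutrophil markers (without *Cxcr2*) summed to 1256, 174 and 263 CPM. In naive cKO it was at 5.34, 15.9 and 5.52 CPM with sums of 284, 623 and 367 CPM. Injured control ganglia had 8.50, 3.03 and 18.1 CPM with sums of 413, 152 and 631 CPM, and injured cKO ganglia 4.03, 1.39 and 1.51 CPM with 178, 97.6 and 83.6 CPM. In the sham ipsilateral cKO mice *Cxcr2* was at 13.2 and 4.26 CPM with sums of 1051 and 482 CPM, against 3.85 and 2.61 CPM with 351 and 229 CPM in control. The library with the highest marker sum in each of these groups also had its highest *Cxcr2*. Injured cKO replicates 2 and 3 were in the reverse order. On the contralateral side *Cxcr2* was at 3.53 and 3.96 CPM with sums of 380 and 354 CPM in control, again in the reverse order, and at 5.54 and 3.90 CPM with 536 and 393 CPM in cKO mice. *Ccl6* was likewise highest, at 9.66 CPM, in naive control replicate 1, the library with the largest marker sum, and *Ccr1* and *Ccr2* were highest there too (at 36.0 CPM for *Ccr2*). *Ccr1*, a receptor of myeloid cells, was at 10.97, 2.26 and 4.83 CPM in naive and 7.31, 5.18 and 10.1 CPM in injured control ganglia. In cKO it was at 2.88, 6.92 and 3.68 CPM in naive and 6.42, 2.11 and 3.54 CPM in injured ganglia, and all 4 groups overlapped. It was at 1.20 to 5.34 CPM in the sham libraries and at 0.266 to 1.98 CPM in the cultures. The part of neutrophil RNA in the genotype and injury values of *Cxcr2*, *Ccr1*, *Ccr2*, *Ccl6* and *Ccl9* was not tested. All 9 markers had counts in each of the 10 groups. *Cxcr2* had log2 injury differences of -0.05 ± 0.74 in control and -1.94 ± 0.86 in cKO ganglia (adjusted p 0.147, edgeR).

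**Figure D5:**
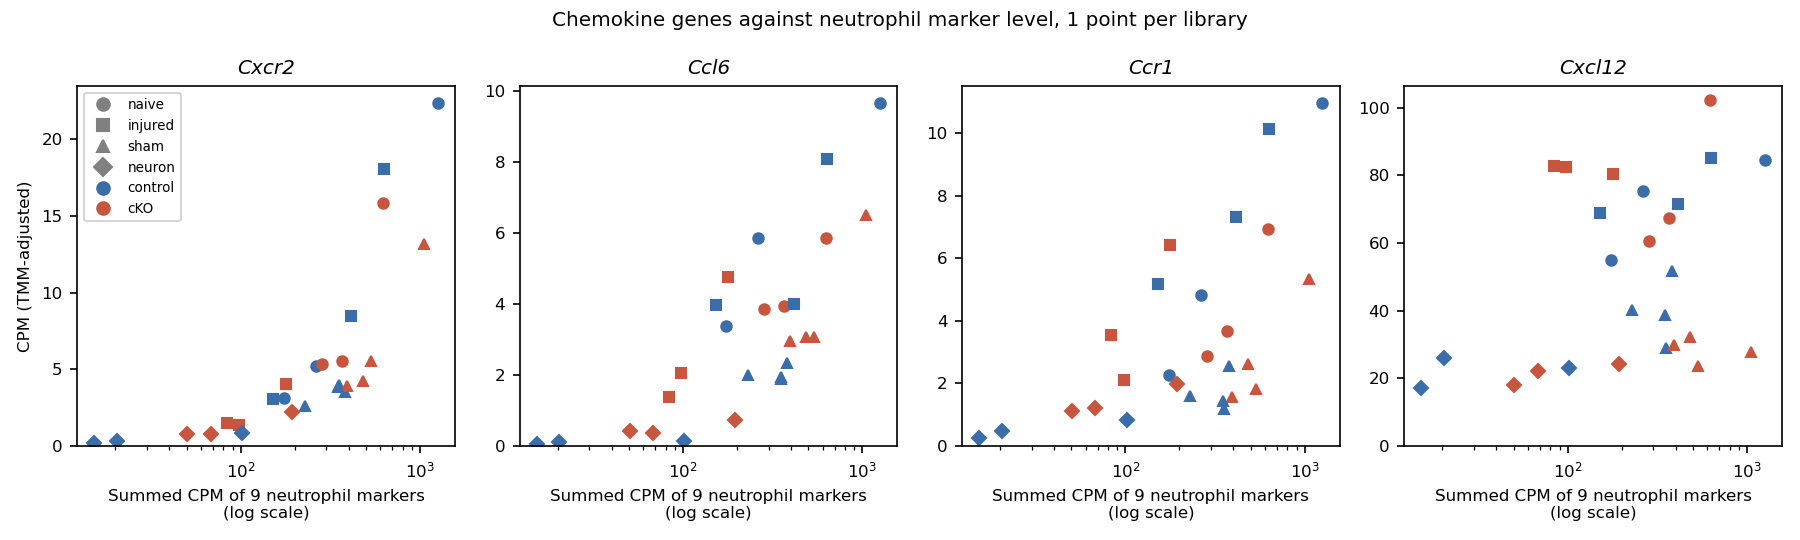
CPM of *Cxcr2*, *Ccl6*, *Ccr1* and *Cxcl12* (vertical axes) against the summed CPM of 9 neutrophil markers (horizontal axis, log scale), 1 point per library (circles naive, squares injured, triangles sham, diamonds cultures; blue control, red cKO). *Cxcr2* reaches 22.4 CPM in the library with the largest sum of 1256 CPM, while *Cxcl12*, a gene of stromal cells, is at 54.8 to 102 CPM in the naive and injured, 23.7 to 51.7 CPM in the sham and 17.2 to 25.9 CPM in the culture libraries.

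The operated side of sham mice was compared with the other side over both genotypes. By edgeR 0 of 39 genes were called (0.00451% of all genes), with 3 at an unadjusted p under 0.05 (7.56% of all genes), and DESeq2 called 0. *Ccl2* was at 0.865 and 0.672 CPM contralateral and 1.08 and 1.56 CPM ipsilateral in control, and at 0.674 and 0.434 CPM against 1.09 and 1.52 CPM in cKO mice, higher on the operated side in 4 of 4 mice and without overlap (log2 difference 1.00 ± 0.24, unadjusted p 0.0032, adjusted p 0.373). It was the 1 gene of the 39 without overlap, where 4.25% of all genes had none. *Ccl8* (0.67 ± 0.24) and *Ccl1* (-0.33 ± 0.14) had the same signs as after crush, and *Ccl7* did not reach that threshold. The interaction of side and genotype had 0 calls by edgeR (0.0% of all genes) and by DESeq2, with 5 at an unadjusted p under 0.05 (4.08% of all genes), among them *Cxcr4*, *Ccr2*, *Ccr1* and *Ccl9*.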

How the data were processed

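Per the labels' protocols, 26 libraries were made from DRG RNA (TruSeq Stranded mRNA). The submitters' processing notes name Trim Galore, HISAT2, featureCounts and mm10, and the strand setting is not given in the sources used here. The authors deposited whole-number counts per gene and FPKM, in 1 pair of tables for the naive and injured ganglia and 1 for the rest. The FPKM implied the whole gene span as length and were used only for that check. Of 55401 genes, 98.1% had a symbol in GENCODE M21.

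Counts were tested with edgeR 4.0.16 (R 4.3.3), quasi-likelihood test, filterByExpr (minimum count 10, minimum total 15), TMM and Benjamini-Hochberg adjustment over all genes tested. The 12 naive and injured, 8 sham and 6 culture libraries were fitted separately with 1 mean per group, two-sided. CPM are TMM-adjusted, errors SD, and the SE of a log2 fold change is its size divided by the square root of F. The fit recovered changed genes in data simulated with a fixed spread, lower than that of the culture and sham libraries. The changed genes had higher counts than, for example, *Cxcl13* (2 to 13 counts in naive and injured libraries). Recovery of genes with few counts was therefore not tested. Per the labels, each library is 1 mouse, except that both sides of a sham mouse are 2 libraries. The members and lists were chosen with earlier results of these data known. Genes with a mean of at least 1 CPM in a group, or called, are described by library values or ranges, and the rest are named. The counts include 1 gene that is not reported here. Alternatives were DESeq2 1.42.0, RLE factors, other filters, an adjusted p under 0.1, a replicate block, sex by transcripts, only the 2 groups compared, and each library left out. Alternatives chosen after seeing the data were leaving out the 2 libraries against their labelled sex and crossing the cKO sham mice. Both sides of a sham mouse share a mouse number in the labels, and the paired deviations correlated at 0.309 in control and -0.223 in cKO.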

Additional observations from a re-analysis of the deposited data

Results flagged for a closer look

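For 5 genes, all cKO libraries were above all controls in 1 setting and below them in another. In all, 360 pairs of settings were compared, and with 2 libraries per group in the sham settings such separation is common (33.3% of all genes in sham ipsilateral ganglia). The values are the difference between the 2 log2 effects. The difference itself was not tested, because these settings come from different fits.

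*Ccl7* differed by 1.69 between cultures (0.59) and naive ganglia (-1.10), by 1.94 between cultures and sham contralateral ganglia (-1.35), and by 1.11 between cultures and sham ipsilateral ganglia (-0.51). *Cxcl10* differed by 2.76 between injured (1.08) and sham ipsilateral ganglia (-1.68). *Ackr2* differed by 2.58 between sham ipsilateral (1.15) and injured ganglia (-1.43), and *Ccl9* by 2.00 between the same settings (1.21 and -0.79). *Ccl25* differed by 0.45 between sham contralateral (0.27) and naive ganglia (-0.18).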

How the results depend on the processing

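No value changed sign under any alternative among the genes with an unadjusted p under 0.05. The 5 calls of injury in control became 10 at an adjusted p under 0.1 and 3 with only the 2 groups fitted. With single libraries left out they ranged from 0 to 6 (14.4% to 18.9% of all genes). The 8 calls in cKO became 3 with sex by transcripts as covariate and 5 without the 2 libraries against their labelled sex. Over all genes, 3962 calls became 1414 and 2400. With single libraries left out the calls in cKO ranged from 4 to 7 (12.3% to 17.4% of all genes). For genotype, DESeq2 called 2 genes in cultures and 2 in sham ipsilateral ganglia in place of 0. Without a filter on low counts, 6 were called in sham ipsilateral ganglia and 1 between the sham sides (1.79% and 1.09% of all genes). With sex as covariate in cKO, the called genes were 6 of receptor signalling (12 before), 5 of NF-kB and cytokines (10 before) and 0 of the genes with other symbols (1 before). That last count was 2 at an adjusted p under 0.1 and with only the 2 groups, 0 without the 2 libraries against their labelled sex, 0 to 1 with single cKO libraries left out, and 1 to 2 in control. The cause was not tested.

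With the replicate number as a block, 4 genes were called in control, 8 in cKO and 13 on average, and 0 in the other comparisons. Outside the sham sides the libraries share only a number. The mouse block for the sham sides, also crossed in cKO, gave 0 calls. Depth limits the ELR ligands in ganglia, where 3 counts are 0.0340 to 0.149 CPM over all libraries.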
